A study of Gasterosteus aculeatus with 12 samples.

Results

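The 12 whole stickleback embryos of this series fell into 2 sets of 6 by what they inherited on chromosome XII, and the RNA of these sets is compared here. Sites on chromosome XII were used where all 12 embryos had an entry and more than 12 reads, and an embryo was counted as heterozygous at a site when the rarer base made up more than 10% of its reads. Of 6184 such sites, 6 embryos were heterozygous at 3346 to 3418 and the other 6 at 2478 to 2529. The limit of 2900 heterozygous sites that divides them lies in a gap of 817 sites in which no embryo falls. The embryos above the limit (the high group) were those labelled replicates 2, 5, 6, 7, 10 and 11, and those below it (the low group) were replicates 1, 3, 4, 8, 9 and 12. The groups were chosen by these heterozygous counts, which are given as a description only.

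All 12 embryos were threespine stickleback (*Gasterosteus aculeatus*) F1 hybrids from the cross LITC x High-spine, made by fertilization in vitro, and none was treated. LITC is an anadromous population of the Little Campbell River with a low spine number, and the High-spine parent came from a laboratory line descended from a Boulton Lake by Bodega Bay cross and selected for many dorsal spines. The embryos were kept in 10% seawater at 16 °C, frozen whole at 72 h after fertilization (stage 19/20), and made into 1 mRNA library each from 200 ng of total RNA with 12 cycles of PCR. The study used the hybrids to compare the expression of the parental alleles within an embryo, and its labels make no distinction among the 12. The haplotype groups are therefore not the study's groups, and the parental stocks were not inbred, so siblings can differ in either parental copy. Whole embryos mix all tissues, so fewer cells of a type and less RNA per cell cannot be told apart.

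Each embryo of a cross receives 1 copy of every chromosome from each parent, and each copy is itself a mosaic of the parent's own pair, joined at crossovers made in meiosis. Siblings therefore differ in long blocks. A sequence difference inside an inherited block can change the RNA made from that same copy, which is an effect in *cis* and shows as unequal reads of the 2 alleles within an embryo. A product of the block can also change RNA made from other chromosomes, which is an effect in *trans* and acts on both alleles alike.

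Along chromosome XII the groups differed in their share of heterozygous sites over a single long block. In 8 neighbouring windows of 1 Mb, from chrXII:4000001-12000000 (gasAcu1-4), every high embryo had a larger share of heterozygous sites than every low embryo. The widest gap was in the window from 7 to 8 Mb, where 73.1% to 74.7% of 558 sites were heterozygous in the high embryos and 19.4% to 21.0% in the low embryos. The narrowest lay from 5 to 6 Mb, at 45.4% to 47.9% against 34.0% to 43.2%. Just outside the block the groups overlapped from 3 to 4 Mb (44.7% to 50.9% against 43.7% to 48.7%), and from 12 to 13 Mb the order turned, at 47.7% to 49.2% in the high and 56.9% to 61.5% in the low embryos over only 65 sites. Of the remaining windows, the one from 19 to 20 Mb also kept the groups apart, by a small margin (49.8% to 51.3% against 45.5% to 49.6%), and it does not adjoin the block.

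**Figure D1:**
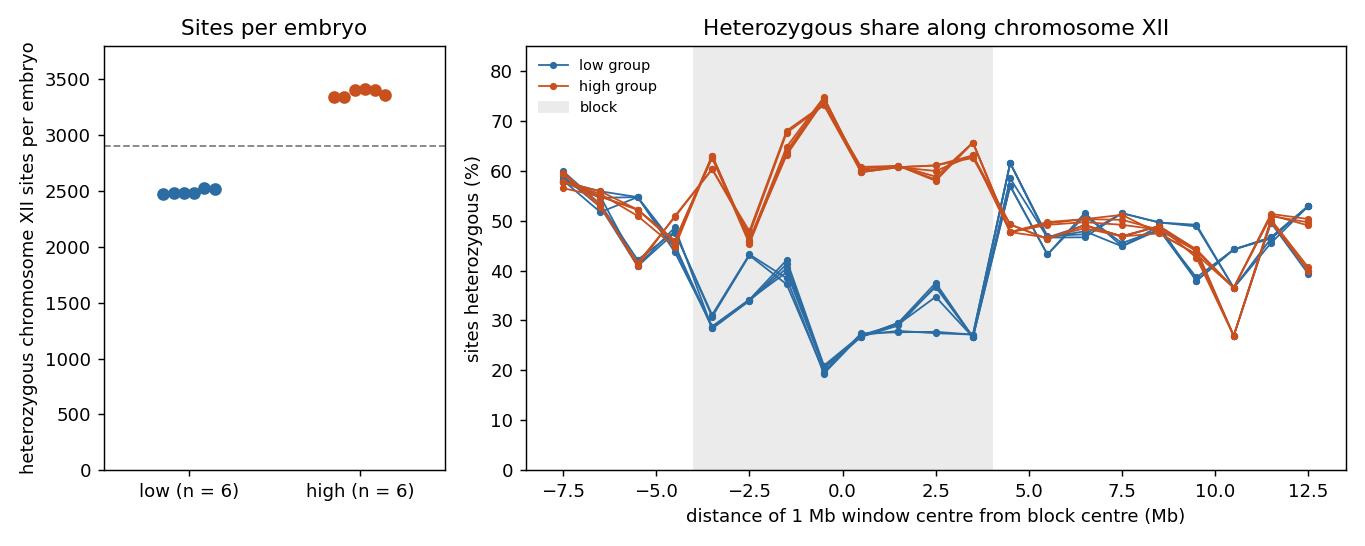
Left, heterozygous chromosome XII sites in each embryo (points, 6 per group) with the limit of 2900 as a dashed line. Right, the percentage of sites that were heterozygous in each 1 Mb window (1 line per embryo) against the window's distance from the block centre in Mb. The high embryos lie above the low embryos throughout the shaded block of 8 Mb. They mix with them in most windows outside it, lie below them in the window just right of the block and slightly above them in 1 window farther right.

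Single sites that separate the groups completely reached somewhat farther. In the block, 1159 of 2745 sites (42.2%) were heterozygous in all 6 high embryos and in no low embryo, and 300 (10.9%) in all 6 low embryos and in no high embryo. At 624 of the 1159 sites the low embryos showed the reference base and at 535 the alternate base, so the low embryos carried the reference base at some of these sites and the alternate base at others. Over all of chromosome XII there were 1236 sites of the first kind, from position 2968619 to 12254806, and 383 of the second, from 2919283 to 12346554. In the window from 3 to 4 Mb, which the window shares leave outside the block, there were 72 of the first kind and 67 of the second, in nearly equal number. No site on any other chromosome separated the groups in either way.

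**Figure D2:**
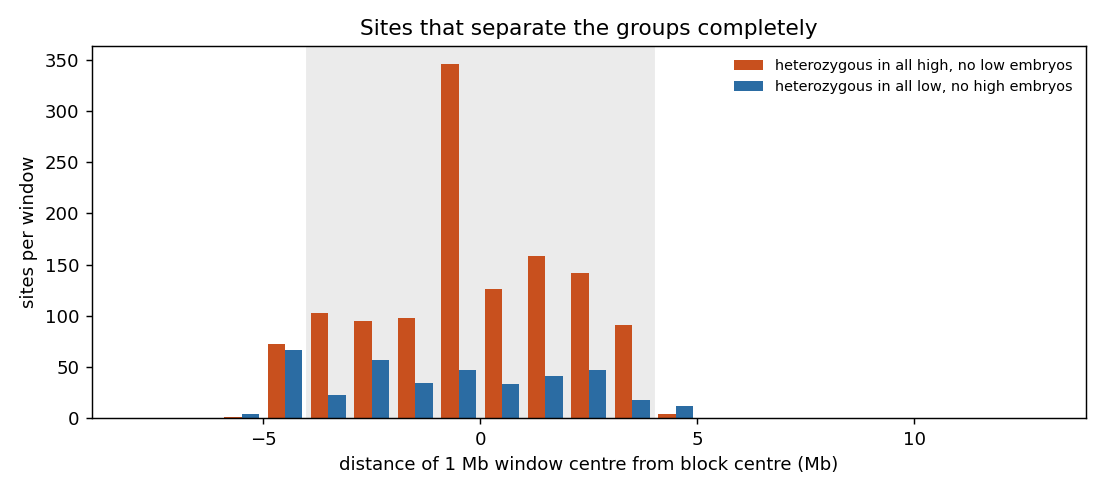
Number of sites per 1 Mb window that were heterozygous in all high and no low embryos, or the reverse, against distance from the block centre in Mb. The shaded area is the block. The 1236 and 383 sites of the 2 kinds all lie in or next to it.

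Near the ends of the block some low embryos changed state. Low embryo 1 had its own group's state at 99.7% of 678 informative sites up to position 12346554, and from 12435722 onwards it had the high group's state at 100% of 661 sites. At the other end, embryo 4 changed between 2919283 and 2519548, embryo 3 between 2501966 and 2428792, and embryo 12 between 1949169 and 1938519. Embryos 8 and 9 showed no such change. To the right of the block only embryo 1 changed. Low embryos 3, 4, 8, 9 and 12 had the high group's state at 0% to 3.92% of informative sites in every window from 13 to 21 Mb. These embryos thus stayed apart from all high embryos there, which the shares of heterozygous sites do not show. The high embryos gave no sign of such a change. Beyond the block few sites had all low embryos alike, but at other sites the high group was undivided. From 13 to 14 Mb, all high embryos and embryo 1 differed from embryos 3, 4, 8, 9 and 12 at 58 and 45 sites of 2 patterns. From 19 to 20 Mb there were 68 and 49 such sites. From 1 to 2 Mb, all high embryos and embryos 3, 4 and 12 differed from embryos 1, 8 and 9 at 28 and 30 sites. Which parent passed on the differing copies cannot be read from the files used here.

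Inside the block a second division of the embryos crossed the first. At 272 block sites, from 4229142 to 7503811, embryos 1, 2, 4, 5, 6, 8, 9 and 11 had a state opposite to that of embryos 3, 7, 10 and 12, so that both groups were divided. From 7812008 to 10570273, at 175 sites, embryo 6 had gone over to the other side, and from 10723830, at 59 sites, embryo 9 had followed. Each haplotype group is thus a mixture of 2 classes of embryo with regard to the second division, and only the first is shared by all 6 members.

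The groups were compared in what else they had inherited and in depth. Between 16302333 and 27003127 reads were counted per embryo, and the means of 22694400 in the high and 23251500 in the low group did not differ beyond the spread (two-sided exact permutation test, p = 0.738). None of the 23 other chromosomes and sequence collections differed in heterozygous sites after adjustment (lowest exact permutation p = 0.0216, adjusted p = 0.324, Benjamini-Hochberg over 23 tests). Chromosome XIX, the sex chromosome of the species, was nevertheless unevenly shared. Its heterozygous sites numbered either 1877 to 1922 or 7023 to 7124, and the higher class held 5 of 6 high embryos but 1 of 6 low embryos (exact permutation p = 0.0736). The labels give no sex for the embryos, and whether these 2 classes are the sexes was not tested. Only embryo 10 in the high group and embryo 4 in the low group break the tie between the 2 chromosomes, so the called windows are given below with those embryos named and with chromosome XIX as a term in the fit. On chromosome VII the higher class held 4 high and 3 low embryos, and on chromosome I 5 and 3.

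The summed RNA of the block did not differ detectably between the groups. Its share of counted reads was 2.16% to 2.39% in the high embryos and 2.14% to 2.35% in the low embryos, with means of 2.25% ± 0.0761 and 2.22% ± 0.0787 (SD, n = 6 each). The difference of 0.0248 percentage points was within the spread (two-sided exact permutation test, p = 0.571). Reads that the counter set aside for low mapping quality took 6.42% of block reads in the high and 6.82% in the low group (exact permutation p = 0.277). The rest of chromosome XII held 2.81% and 2.76% of the reads (exact permutation p = 0.0779).

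Read totals were then compared in windows of 10 kb, of which 16539 had a mean of at least 50 reads. Windows are named by position because no gene annotation of gasAcu1-4 was used here. Of 364 such windows in the block, 3 differed between the groups at an adjusted p below 0.05 (0.824%), where 4 of all 16539 windows did (0.0242%; edgeR's quasi-likelihood test, Benjamini-Hochberg over all windows). The block calls were 1 window with a higher total in the high group, the only such window of the genome (0.00605% of all windows), and 2 with a lower total, among 3 in the genome (0.0181%). None of 479 windows on the rest of chromosome XII was called by edgeR, with 42 at an unadjusted p below 0.05 and 4 called by DESeq2. That rest is not a part that the groups share. It holds separating sites from 3 to 4 Mb, and from 13 to 21 Mb only low embryo 1 had the high group's state. Most block windows were close to 0. The median log2 fold change of high against low was 0.00, the middle 50% lay between -0.12 and 0.14, and 182 of 364 were above 0. The 6 embryos of a group lay wholly above those of the other in 13 block windows (3.57%), 8 of them higher and 5 lower in the high group, against 0.835% of windows on the rest of chromosome XII, 0.191% on other chromosomes and 0.284% of all windows.

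The block window of smallest p had a lower total in the high group at chrXII:10960001-10970000. The high embryos had 19.5 to 26.2 CPM, a count of reads scaled to a common library size (median 21.1) and the low embryos 69.3 to 98.3 (median 74.7). Every high embryo was below every low embryo, and embryos 4 and 10 stood with their chromosome XII groups, at 72.5 and 19.5. The log2 fold change was -1.81 ± 0.11 (SE, edgeR, adjusted p = 1.81e-06), and it passed in all 23 alternatives in which the window was tested, with adjusted p from 7.12e-48 to 0.00506. With chromosome XIX in the fit it was -1.84 (edgeR, adjusted p = 0.000149).

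That window rests on a few sites. At position 10963712, where nearly all reads of all embryos had the reference base, 253 to 471 reads were counted in the high and 540 to 821 in the low embryos. At 10964293 the reference base fell further, from 749 to 1244 reads in the low embryos to 34 to 147 in the high, while the alternate base had 6 to 22 and 9 to 22. At the latter site 26.7% of all raw reads had low mapping quality, against 2.28% at the former. The size of the change therefore differs by site, from -0.88 on the log2 scale over sites whose allele share was alike in the groups to -3.37 at the deepest site alone. At 10964293 the high embryos also differed along the second division. Embryos 2, 5 and 11 had 115 to 147 reference reads and embryos 6, 7 and 10 had 34 to 41. In the low group the sides overlapped, at 749 to 1062 in embryos 1, 4 and 8 and 977 to 1244 in embryos 3, 9 and 12. A part of the second division in this window was not tested.

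A window at chrXII:5770001-5780000 was higher in the high group. It had 51.4 to 113 CPM in the high embryos (median 56.2) and 19.7 to 27.7 in the low (median 23.3), without overlap, and embryos 10 and 4 had 57.4 and 21.9. The log2 fold change was 1.51 ± 0.19 (SE, edgeR, adjusted p = 0.00599). With chromosome XIX in the fit it was 1.46 and lost its call (edgeR, adjusted p = 0.22; range over alternatives 2.46e-11 to 0.22). Here the alleles could be followed as well. At position 5771502 the low embryos had 55 to 89 reads of the alternate base and 0 or 1 of the reference base, and the high embryos had 97 to 231 reads of the reference base, which the low group lacked, beside 18 to 189 of the alternate. The deepest site of the window, 5771888, did not separate the groups by base. There the low embryos had 0 to 142 reads of the reference base and the high embryos 0 to 665 of the alternate. Over sites of like allele share the window was not tested.

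The third block window, chrXII:6730001-6740000, was lower in the high group by a smaller amount. Its totals were 108 to 139 CPM in the high embryos (median 119) and 176 to 231 in the low (median 197), again without overlap. Embryo 10 had 139, the highest of its group, and embryo 4 had 201. Among its deepest sites, those from 6731376 to 6731475 had 11.4% to 23.4% of raw reads of low mapping quality, and the others 2.27% to 2.37%. At 6731475 the counted reads summed to 240 in the high and 539 in the low group. With all raw reads counted, the log2 fold change of the window was -0.62 (edgeR, adjusted p = 0.0186). The log2 fold change was -0.72 ± 0.09 (SE, edgeR, adjusted p = 0.00599), and the call was lost with chromosome XIX in the fit (-0.65, adjusted p = 0.22), at the deepest site alone (-0.65, adjusted p = 0.338) and over sites of like allele share (-0.61, adjusted p = 0.105).

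**Figure D3:**
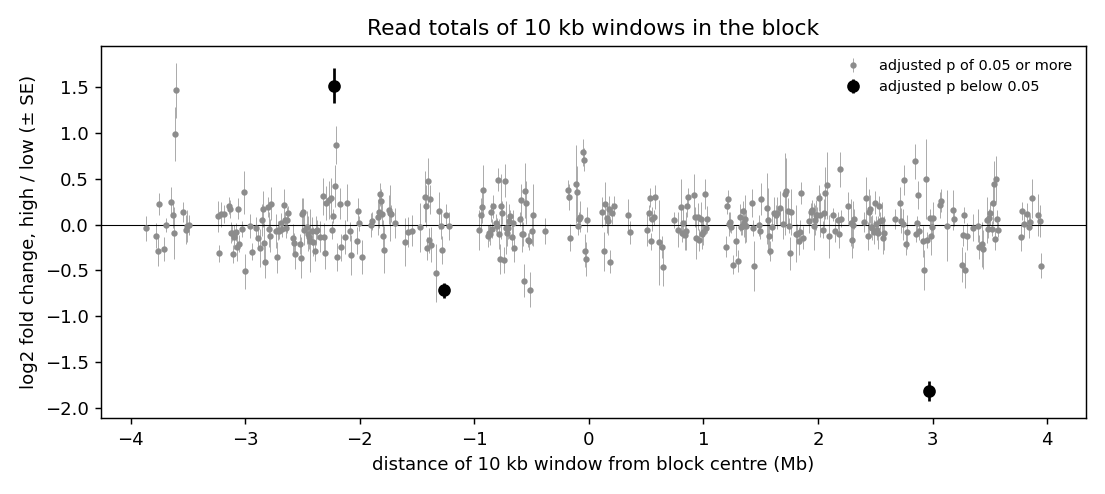
Log2 fold change of read totals, high over low, with its SE, for the 364 tested windows of 10 kb in the block, against distance from the block centre in Mb. Larger black points are the 3 windows with an adjusted p below 0.05, and most other windows lie close to 0.

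Outside chromosome XII a single window was called among 15696 (0.00637%). At chrXI:630001-640000 the high embryos had 0.713 to 2.53 CPM (median 0.842) and the low embryos 4.66 to 6.61 (median 6.20), without overlap, with embryo 10 at 2.53 and embryo 4 at 6.52. The log2 fold change was -2.20 ± 0.31 (SE, edgeR, adjusted p = 0.0236). It rested on 6 sites and a mean of 83 reads per embryo, and the call was lost with chromosome XIX in the fit (-1.95, adjusted p = 0.22) and without any 1 of embryos 1, 2, 3, 5, 6, 8, 11 and 12 (adjusted p 0.0504 to 0.106). At its site 634355, high embryos 2, 5, 6 and 11 had no reference read and 3 to 6 alternate reads, high embryos 7 and 10 had 6 and 9 reference reads, and the low embryos had 30 to 54. The high embryos thus parted as in the second division on chromosome XII from 4229142 to 7503811. Their CPM did so too, at 0.713 to 0.853 in embryos 2, 5, 6 and 11 and 2.24 and 2.53 in embryos 7 and 10. In the low group the sides overlapped, at 4.66 to 6.61 in embryos 1, 4, 8 and 9 and 5.79 and 6.52 in embryos 3 and 12. The high group's median thus joins unlike embryos, and a part of the second division was not tested. None of 330 usable sites within 500 kb on either side separated the groups, and 2 of 45 other windows tested there had an unadjusted p below 0.05.

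The other windows of smallest p outside chromosome XII did not pass with edgeR. They were chrIV:17710001-17720000, with a log2 fold change of 0.37 ± 0.07 (SE, edgeR, adjusted p = 0.415), and chrIX:19800001-19810000, with -1.46 ± 0.30 (adjusted p = 0.422). The groups did not overlap in the former (87.4 to 103 against 64.6 to 79.8 CPM) and overlapped in the latter (0.641 to 2.31 against 1.68 to 5.82), where 59.8% to 83.8% of raw reads at the 4 deepest sites had low mapping quality. Both passed with DESeq2 (adjusted p = 0.00254 and 0.00611), and the latter passed with edgeR without embryo 4 (-1.62, adjusted p = 0.0239). With chromosome XIX in the fit they were 0.33 and -0.70 (edgeR, adjusted p = 0.946 for each, the highest over the alternatives).

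**Figure D4:**
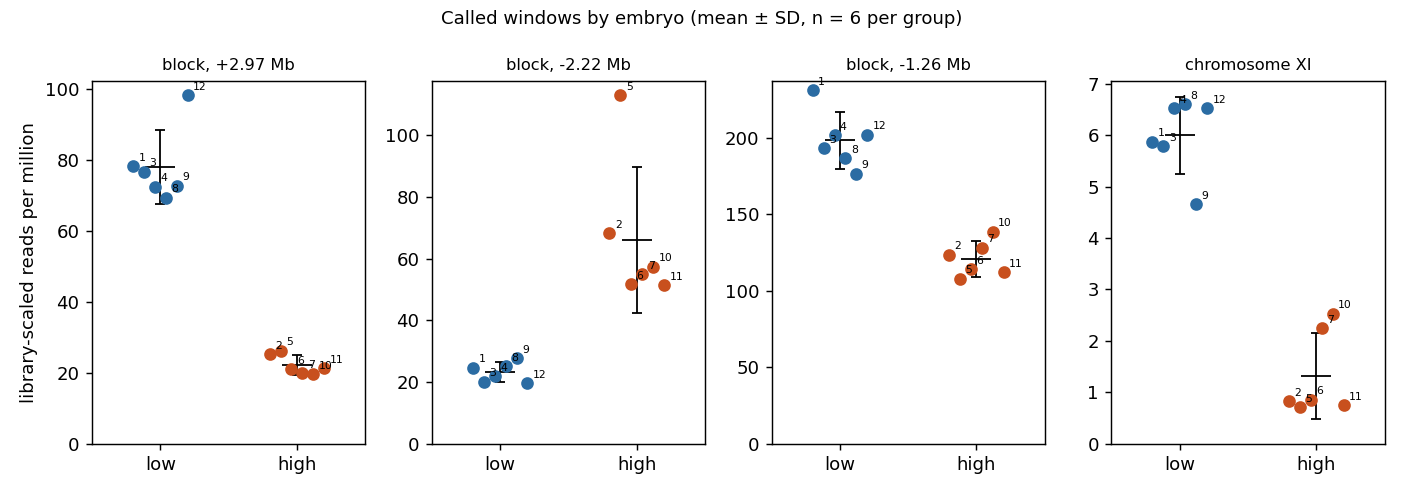
Library-scaled reads (CPM) in each embryo (points with the embryo number) for the 3 called block windows, titled by distance from the block centre, and the called chromosome XI window. Bars are the mean and SD of 6 embryos. The groups do not overlap in any of the 4 windows.

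Unadjusted p-values were also compared by region. An unadjusted p below 0.05 was found in 46 of 364 block windows (12.6%), 42 of 479 on the rest of chromosome XII (8.77%), 339 of 803 on chromosome XIX (42.2%) and 773 of 14893 elsewhere (5.19%), which made 7.26% of all windows. As stated above, the rest of chromosome XII is not a part that the groups share. The chromosome XIX windows were mostly lower in the high group, with a median log2 fold change of -0.30. With chromosome XIX heterozygosity in the fit the shares were 9.34%, 5.85%, 2.62% and 3.24%. How far chromosome XIX contributes to the block windows was not tested beyond this fit, which with embryos 4 and 10 alone to separate the terms called 1 block window, the first one above.

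The alleles of the high embryos gave a comparison of reads within each embryo. The low group entered it only in the choice of sites and in the naming of the alleles. At the sites heterozygous in every high and no low embryo, the base that the low embryos lacked (the tag allele) was compared with the base that both groups carried (the shared allele) within each high embryo. Both alleles share the embryo, its depth and its chromosome XIX. The sites had to show both bases above 10% of reads, so ratios beyond that limit could not enter.

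Of 212 windows with such sites and a mean of at least 20 reads per allele, 65 had unequal alleles at an adjusted p below 0.05 (30.7%; edgeR with the embryo as a block), 34 with more reads of the tag allele and 31 with fewer. The median log2 ratio of tag to shared reads was -0.00, and the middle 50% lay between -0.15 and 0.15. In 51 of the 65 windows all 6 embryos leaned the same way. This describes the called windows only, as the test itself favours agreement among embryos. Unequal alleles were also common elsewhere. With 1 deepest site per window heterozygous in all 6 high embryos, 1135 of 5641 windows of the genome were called (20.1%), 1047 of 5261 outside chromosome XII (19.9%), 38 of 211 on the rest of chromosome XII (18.0%) and 42 of 148 at tag sites of the block (28.4%). In these calls the reference base mostly had more reads. The alternate base was the higher one in 327 of the 1135, 299 of the 1047 and 15 of the 42. The median absolute log2 ratio was 0.19 at those block sites and 0.18 outside chromosome XII.

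The largest ratios lay toward 1 end of the block. At chrXII:4370001-4380000 the tag allele had 10.6% to 27.8% of reads in the 6 embryos (median 19.5%), a log2 ratio of -1.88 ± 0.22 (SE, edgeR, adjusted p = 2.38e-05). At chrXII:5430001-5440000 it had 17.5% to 28.2% (median 22.8%), a log2 ratio of -1.76 ± 0.17 (adjusted p = 4.98e-06). The tag allele was thus the minor one in every embryo in both. These windows hold 2 tag sites and 1.

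Near the first of them the order turned. At chrXII:4390001-4400000 the tag allele had 68.3% to 81.0% of reads (median 71.4%, log2 ratio 1.46 ± 0.12, edgeR adjusted p = 1.28e-06) and was the major one at all 7 tag sites. The ratio was 0.73 with a heterozygosity limit of 20% (adjusted p = 0.00125). The window in between, chrXII:4380001-4390000, was mixed. At 4 of its 9 tag sites, from 4380575 to 4380870, the tag allele had 22.4% to 26.1% of the reads of the high group, and at the other 5, from 4388045 to 4389641, it had 71.2% to 74.5%. Its summed share of 60.9% to 73.4% (log2 ratio 0.83 ± 0.09, edgeR adjusted p = 2.38e-05) thus joins sites of opposite direction. The ratio was 1.56 at the deepest site and 1.54 with a heterozygosity limit of 20%, and without the embryo block it missed the threshold (0.79, adjusted p = 0.149; range over alternatives 9.35e-12 to 0.149). The totals of these neighbours had log2 fold changes of high against low of 1.46 ± 0.30 and 0.99 ± 0.29 (SE, edgeR), which did not pass (adjusted p = 0.422 and 0.562). Neighbouring windows can hold 1 transcript and are not independent.

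At chrXII:5770001-5780000, called above for its total, the tag allele had 55.0% to 84.3% of reads (median 67.2%, log2 ratio 1.14 ± 0.22, edgeR adjusted p = 0.00174). It was the only 1 of the 212 windows called both ways, and both differences pointed in 1 direction. Only 2 of the called block windows were among the 212. The window at chrXII:10960001-10970000 was not, so its alleles were not tested. The window at chrXII:6730001-6740000, called for its lower total, had a tag share of 43.6% to 53.3% at 6 sites and a log2 ratio of -0.05 ± 0.09 (SE, edgeR, adjusted p = 0.777). The ratio at chrXII:5770001-5780000 came from 1 site, and without the embryo block it missed the threshold (adjusted p = 0.051). Its tag share also differed along the second division of the embryos. Embryos 7 and 10, on one side of it, had 84.3% and 83.3%, and embryos 2, 5, 6 and 11 had 55.0% to 68.6%. The median and the ratio thus join unlike embryos, and a part of the second division in this was not tested.

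In the remaining named windows the tag allele had 31.5% to 40.0% of reads at chrXII:7430001-7440000 (log2 ratio -0.80 ± 0.07), 59.1% to 71.8% at chrXII:8860001-8870000 (0.78 ± 0.11) and 65.1% to 69.5% at chrXII:3400001-3410000 (1.01 ± 0.07), which lies outside the block but among the separating sites. At the deepest site alone the first of these was -0.10 (edgeR, adjusted p = 0.803; range over alternatives 1.70e-11 to 0.803) and the last 0.18 (adjusted p = 0.205; range 1.24e-15 to 0.205), so both ratios rest on other sites of the window. At the 2 most unequal of the last window's sites, 32.4% and 38.6% of raw reads had low mapping quality.

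Across the 212 windows the total and the allele ratio were related loosely. Pearson's r was 0.53 and Spearman's rho 0.39, as a description across windows that share embryos and reads. Of the 65 windows with unequal alleles, 47 leaned the same way in their total, and of all 212 windows 126 did. If both copies in the low embryos were as active as the shared allele, replacing 1 of them by the tag allele would give the fold change drawn as a line in the plot of ratio against total. The totals of 182 of the 212 windows lay within 2 SE (of the total) of that line, 17 lay farther above and 13 farther below. That count cannot tell the line from no change in total, because the line's values were mostly small beside 2 SE. The quartiles of the log2 allele ratio were -0.15 and 0.15, and the median SE of the block totals was 0.15. How many totals lay that close to no change was not counted. The called totals were among the departures from the line. At chrXII:5770001-5780000 the total was 1.51 ± 0.19 where the line gives 0.68. At chrXII:6730001-6740000 it was -0.72 ± 0.09 where the line gives -0.02. These set unlike sites side by side, as a total joins all sites of its window and the line's value only its tag sites. The first total joins 25 sites and its ratio 1, and the second joins 150 sites and its ratio only the tag sites counted above. At chrXII:4390001-4400000 the total was 1.46 ± 0.30 against 0.91, and at chrXII:4370001-4380000 and chrXII:5430001-5440000 it was -0.09 ± 0.28 and -0.32 ± 0.17 against -0.65 and -0.63.

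**Figure D5:**
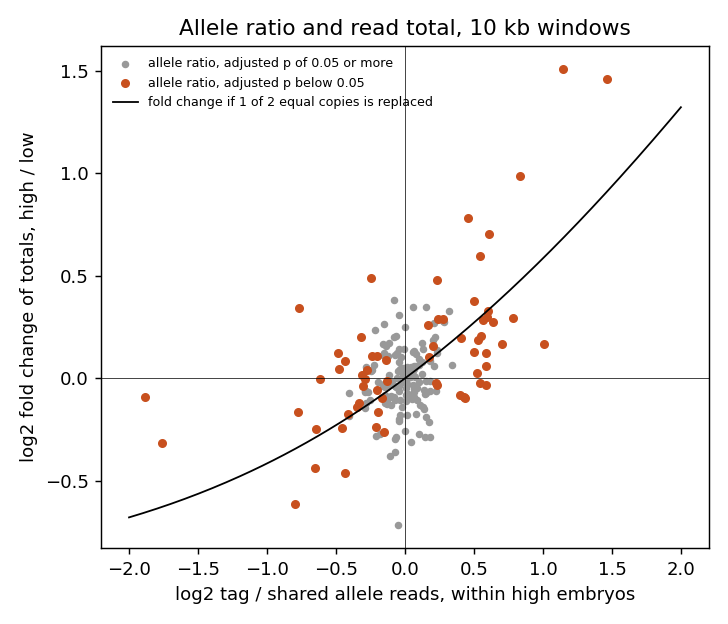
Log2 fold change of read totals, high over low, against the log2 ratio of tag to shared allele reads within the high embryos, for 212 windows of 10 kb. Coloured points are the 65 windows with unequal alleles at an adjusted p below 0.05, and the line is the fold change if 1 of 2 equal copies is replaced. Points scatter widely around both the line and the level of no change in total.

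Summed over the block, the tag allele had slightly more reads than the shared allele in each high embryo. It took 51.2% to 53.9% of the reads, and the mean log2 ratio was 0.14 ± 0.06 (SD, n = 6; exact permutation of signs, two-sided, p = 0.0312, the smallest that 6 embryos allow). The sum was carried by few windows. Without the 10 deepest of 215 windows, which held 47.8% of the reads, the mean was 0.02 and 5 of 6 embryos were above 0 (exact sign-flip permutation p = 0.156). It also moved with the base. Where the tag allele was the reference base the mean was 0.23, and where it was the alternate base it was 0.08, with 5 of 6 embryos above 0 (exact sign-flip permutation p = 0.0938). The median tag share per site was likewise 51.9% at reference and 49.0% at alternate tag sites. The part of mapping to the reference in this result was not tested.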

How the data were processed

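The authors sequenced mRNA of 12 whole F1 embryos, trimmed reads with Cutadapt 2.4, aligned with STAR to gasAcu1-4 and counted alleles with GATK 4.1.4.1. The deposited values are counts: whole numbers of reads per base at each site, not normalized, with reads of low mapping quality in a separate column. A read is counted at every site it spans, so counts of neighbouring sites are not independent. No molecular identifiers are described, so reads are not independent molecules.

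Sites were joined over the embryos (321670 in all 12). Totals over these sites were summed in 10 kb windows with a mean of at least 50 reads and tested with edgeR 4.0.16 (R 4.3.3; TMM scaling, quasi-likelihood, Benjamini-Hochberg over all windows). The allele test used tag and shared reads as 2 columns per high embryo with 1 library size. In it the pairing comes from the embryo itself. Both fits were tested on simulated counts. Single values were tested by exact permutation in Python 3.11.15. DESeq2 1.42.0, other filters, scalings, limits, window sizes and covariates, and leaving out each embryo were tried as alternatives.

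The windows named were, in the block and in the allele test, the largest changes of adjusted p below 0.05 (up to 12 and up to 8), and outside chromosome XII the 3 of smallest p, since fewer than 3 passed. The groups, limits and comparisons were chosen with earlier results of these data known. Embryos are separate animals, but the groups were set by inheritance and not assigned, so anything inherited together with the block cannot be told apart from it. No sample was left out.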

Additional observations from a re-analysis of the deposited data

Results flagged for a closer look

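In 3 of 29 sets of 6 embryos examined, 1 embryo was an outlier by Dixon's test, where chance gives about 1 in 20 sets. The test sets the gap to the next embryo against the whole range of the 6. Embryo 2 had the largest block share of the high group, 2.39% against 2.24% in the next embryo, and without it the difference between the groups was -0.00403 percentage points in place of 0.0248. Embryo 5 had the highest total of the high group at chrXII:5770001-5780000, 113 CPM against 68.2 in the next, and without it the log2 fold change there was 1.29 (edgeR, adjusted p = 0.000285). Embryo 12 had the highest total of the low group at chrXII:10960001-10970000, 98.3 against 78.2, and without it the log2 fold change was -1.73 (edgeR, adjusted p = 1.85e-06).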

How the results depend on the processing

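The groups and the 8 block windows were the same with heterozygosity limits of 5% and 20%. With more than 30 reads per embryo 3348 sites remained and 0 embryos passed 2900, as fewer sites were counted, while the counts still separated (1730 to 1747 against 1268 to 1311) and the block was the same. With the block drawn where the group means differed by more than 0.10 it ran from 6 to 12 Mb and held 2 calls, 0 of them higher, because chrXII:5770001-5780000 then lay outside it. The 3 block calls became 7 with DESeq2, 0 in 50 kb windows and 1 with chromosome XIX in the fit, and 3 to 5 with 1 embryo left out (5 without embryo 4). The single call outside chromosome XII became 36 with DESeq2 (20 on chromosome XIX), 5 with chromosome I in the fit, 2 without the filter, and 0 with at least 200 reads, at the deepest site, over sites of like allele share and with chromosome XIX in the fit. With 1 embryo left out there were 0 to 23, with 23 without embryo 4, 2 without embryo 10 and 0 without any 1 of embryos 2, 3, 6, 8, 11 and 12. The cause was not tested. The block share difference turned to -0.00111 over sites of like allele share and -0.0413 at the deepest sites (exact permutation p = 0.970 and 0.418), and was -0.00403 to 0.0505 with 1 embryo left out.

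The 65 allele calls were 28 with no replicate block, which ignores the pairing of alleles within an embryo, and 42 over 148 windows with 1 site each. With 1 embryo left out there were 51 to 58. The summed allele ratio was 0.13 to 0.16 with 1 embryo left out, where 5 embryos cannot give an exact p below 0.0625. As alternatives added after seeing the data, it was 0.0216 without the 10 deepest windows and 0.0822 at alternate tag sites, and the block as the span of separating sites gave 3 calls in 424 windows. No paired analysis was possible because all 12 embryos carry 1 group label with different numbers, so none pairs a high with a low embryo. Of 229 values of named windows under alternatives, 0 reversed, 17 lost and 3 gained a call. The smallest allele ratio called was 0.13 on the log2 scale, in either direction.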
